A study of Homo sapiens and Mus musculus with 16 samples.

Results

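The 10 genes described here belong to the activin, bone morphogenetic protein (BMP) and TGF-beta pathways, and they were measured in PD-L1 KO and PD-L1 WT tumour cells. They are INHBA, BMP4, TGFB1 and TGFB2 among the ligands, FST and THBS1 among the secreted regulators, SMAD3 and SMAD7 among the signal carriers, and ID1 and TGFBI among the target genes. They were chosen by symbol, 10 of the 58713 rows of the MDA-MB-231 table and the same 10 symbols, in mouse spelling, of the 53796 rows of the CT26 table. Earlier results of these data were known when they were chosen. All 10 passed the filter on low values in MDA-MB-231 and 7 passed it in CT26, where Bmp4, Tgfb2 and Tgfbi did not.

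RNA was sequenced from 16 libraries, 4 in each of 4 groups: PD-L1 KO and PD-L1 WT MDA-MB-231 cells, a human triple-negative breast cancer line grown in DMEM, and PD-L1 KO and PD-L1 WT CT26 cells, a mouse colon carcinoma line grown in RPMI medium. The KO cells had received CRISPR by lentivirus, and the sources used here give no control vector for the WT cells and do not say whether KO cells were a clone or a pool. Separate cultures are not stated for the libraries of a group, so p-values reflect the spread between libraries alone, which may be technical. Each line was compared within its own table, KO against WT, in FPKM. These are fragments scaled to transcript length and to library size, the latter by a method that the sources used here do not give.

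Ligands of this family bind pairs of type I and type II receptor kinases. TGF-beta and activin receptors phosphorylate SMAD2 and SMAD3, BMP receptors phosphorylate SMAD1, SMAD5 and SMAD9, and both kinds of SMAD enter the nucleus with SMAD4. Control outside the cell is heavy: TGF-beta is secreted in a latent form that must be activated, and proteins such as follistatin and noggin trap activins and BMPs before they reach a receptor. In carcinoma cells the pathway is known for growth arrest in some settings and for invasion and matrix production in others.

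FST was the member with higher RNA in KO cells of both lines, and ID1, THBS1 and SMAD7 were lower in KO cells of both. Smad7 of CT26, however, differed by -0.04 relative to the median of the genes in its 20 Mb of chromosome (limma, adjusted p = 0.865). The starts of FST, THBS1 and ID1 are shown because the RNA of these genes differed in the same direction in both lines by the widest margins. Each window runs from 250 bases before to 50 bases after the start in RefSeq (GRCh38.p14), on the plus strand, and covers promoter and first transcribed bases. Capitals mark the matches to 4 motifs searched on both strands: CAGAC (a SMAD-binding element), GGCGCC (a GC-rich element bound by SMAD1 and SMAD5), TGANTCA (AP-1) and GGAATG (TEAD).
FST, chr5:53480379-53480678: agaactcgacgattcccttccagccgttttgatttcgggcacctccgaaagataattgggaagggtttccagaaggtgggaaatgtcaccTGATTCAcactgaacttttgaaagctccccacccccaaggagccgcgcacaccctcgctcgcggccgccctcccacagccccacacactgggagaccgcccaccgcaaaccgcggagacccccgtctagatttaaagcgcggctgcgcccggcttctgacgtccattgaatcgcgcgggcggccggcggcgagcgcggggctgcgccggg
THBS1, chr15:39580829-39581128: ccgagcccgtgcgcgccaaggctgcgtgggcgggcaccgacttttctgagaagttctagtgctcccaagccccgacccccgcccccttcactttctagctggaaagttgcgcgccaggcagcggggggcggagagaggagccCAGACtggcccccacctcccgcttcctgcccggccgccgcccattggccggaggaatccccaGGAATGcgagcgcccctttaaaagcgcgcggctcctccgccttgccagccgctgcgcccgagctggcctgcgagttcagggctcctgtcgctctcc
ID1, chr20:31605039-31605338: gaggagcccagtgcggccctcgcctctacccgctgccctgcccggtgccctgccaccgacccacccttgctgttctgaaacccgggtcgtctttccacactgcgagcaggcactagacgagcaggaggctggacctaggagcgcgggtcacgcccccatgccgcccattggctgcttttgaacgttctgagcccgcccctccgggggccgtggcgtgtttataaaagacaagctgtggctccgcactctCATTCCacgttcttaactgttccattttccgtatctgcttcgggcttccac
The FST window held 1 TGANTCA match, 160 bases before the start. The THBS1 window held CAGAC 108 bases and GGAATG 46 bases before the start, and the ID1 window held GGAATG, on the minus strand, beginning 1 base before the start. No matches overlapped. Of 35116 RefSeq promoter windows, 45.3% held CAGAC, 19.2% GGCGCC, 7.71% TGANTCA and 14.0% GGAATG. The 10 genes had 18 windows in all, of which 11 held CAGAC, 3 GGCGCC, 2 TGANTCA and 4 GGAATG. A match describes letters only and is not evidence of binding.

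The targeted transcript was lower in each KO library than in each WT library of CT26, and in MDA-MB-231 its call depended on the scaling. CD274 averaged 10.6 ± 1.91 FPKM in KO and 12.2 ± 0.670 FPKM in WT MDA-MB-231 (SD, n = 4 each), a log2 fold change of -0.20 that did not pass the test (limma, adjusted p = 0.166). It passed as lower with upper-quartile scaling (-0.40, adjusted p = 0.0157), quantile normalization (-0.32, adjusted p = 0.0424) and centring on windows of 20 Mb along the chromosome (-0.36, adjusted p = 0.0286). Cd274 averaged 0.526 ± 0.0552 FPKM in KO and 1.41 ± 0.127 FPKM in WT CT26 (SD, n = 4 each), a log2 fold change of -0.66 (limma, adjusted p = 1.42e-04), or -0.39 after centring on these windows. Cd274 met the filter of 1 FPKM only through its WT libraries, so that entering the test already implied a difference. It had at most 0.569 FPKM in a KO library and at least 1.23 FPKM, close to the filter, in a WT library. The files give no read totals. Relative to WT replicate 1 of the line, depth was 0.509 to 0.779 in KO and 0.941 to 1.21 in WT MDA-MB-231, and 0.926 to 2.49 in KO and 0.799 to 1.14 in WT CT26. MDA-MB-231 had all 6 of its line markers at 1 FPKM or more in every library. CT26 had 4 of the 6, while Krt8 was at most 0.295 FPKM and Egfr at most 0.00213 FPKM in any library. Its epithelial markers were mixed. Epcam and Pgr were listed at 0 in every library. Cdh1 and Krt19 were listed at 0 in each WT library and at most at 0.0982 and 0.169 FPKM in a KO library. Esr1 stood at 3.99 to 4.46 FPKM in KO and 3.23 to 3.90 FPKM in WT libraries. The intestinal factor Cdx2 stood at 0.876 to 1.05 FPKM in KO and 0.0258 to 0.0630 FPKM in WT libraries. The keratin Krt18, counted among the line markers, stood at 30.4 to 34.8 FPKM in KO and 33.0 to 34.6 FPKM in WT libraries. A gene was called higher or lower where the limma adjusted p, over all tested genes and on log2(FPKM + 1), was below 0.05, a scale that understates the change of genes with low FPKM. Of the genes tested in MDA-MB-231, 42.6% were higher and 25.7% lower in KO (6149 and 3711 genes), with a median log2 fold change of 0.18. Upper-quartile scaling moved that median to -0.01 and the split to 4736 higher and 4851 lower. In CT26, 22.3% were higher and 33.4% lower in KO (2534 and 3793 genes), with a median of -0.06, against 3313 higher and 2841 lower after upper-quartile scaling.

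In MDA-MB-231, 1 of the 10 members was higher in KO, 7 were lower and 2 did not pass the test, beside 42.6% of all genes higher, 25.7% lower and 68.2% called in either direction. The median log2 fold change of the 10 was -0.75, against 0.18 for all tested genes. The KO and WT libraries did not overlap for 8 of the 10, beside 62.7% of all tested genes. In CT26, 1 of the 7 tested members was higher, 4 were lower and 2 did not pass, beside 22.3% higher, 33.4% lower and 55.8% called in either direction among all genes. Their median was -0.16, against -0.06, and 5 of the 7 did not overlap between the groups, beside 51.5% of all genes. Because the members were chosen with earlier results known, a distance from all genes may come from that choice, and it was not tested. In bulk RNA, fewer cells of a type and less RNA per cell cannot be told apart.

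**Figure D1:**
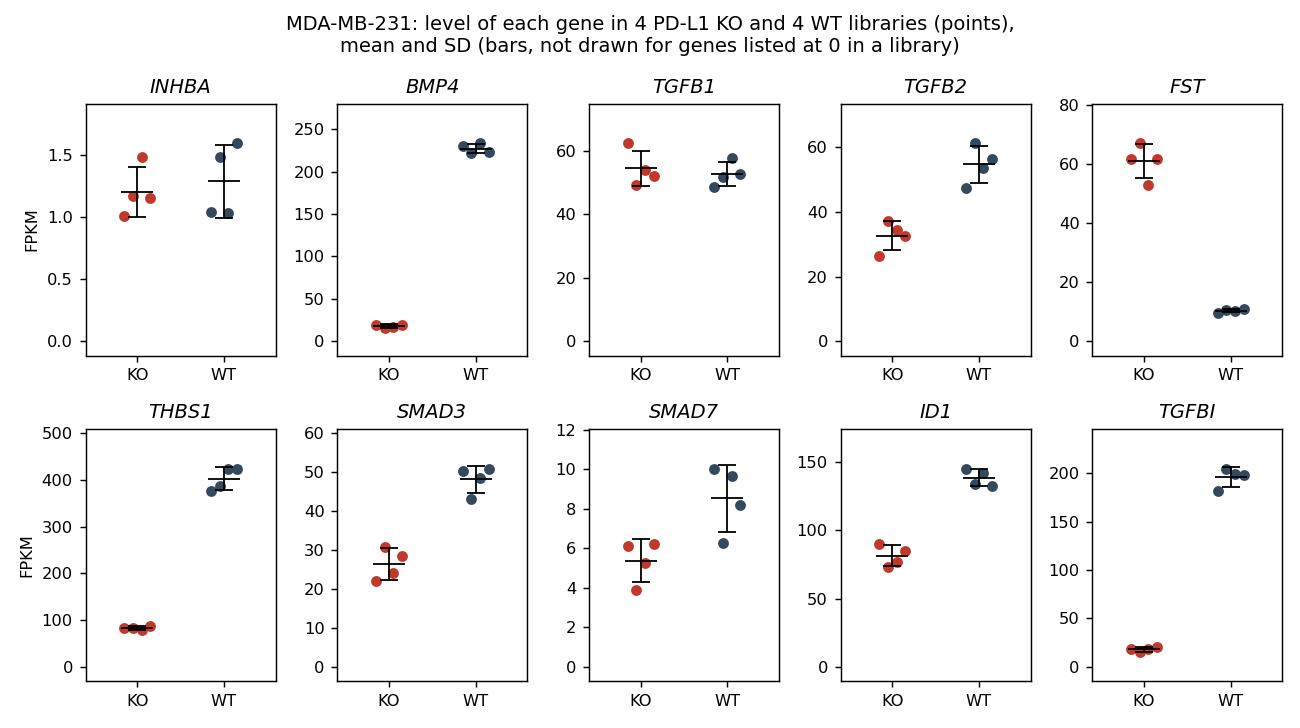
Level of each of the 10 genes in FPKM (vertical axes, each starting near 0) in the 4 PD-L1 KO and 4 PD-L1 WT libraries of MDA-MB-231. Points are libraries and bars the mean and SD. FST stands higher in all 4 KO libraries (53.0 to 66.9 FPKM, against 9.67 to 10.8 in WT), BMP4, TGFBI and THBS1 stand far lower, and INHBA and TGFB1 overlap.

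Among the ligands, BMP4 showed the widest difference. BMP4 (ENSG00000125378, hg38 chromosome 14, 53949736 to 53958761) encodes a secreted BMP that acts through SMAD1 and SMAD5. In MDA-MB-231 it had 19.5, 15.9, 16.8 and 19.7 FPKM in the KO libraries, against 230.3, 222, 233 and 223 FPKM in the WT libraries. All KO libraries lay far below all WT libraries. KO cells averaged 17.98 ± 1.91 FPKM and WT cells 227 ± 5.67 FPKM (SD, n = 4 each), so KO held 7.92% of the WT level, with a log2 fold change of -3.59 (SE 0.07, limma, adjusted p = 2.20e-09). By fold change this was the 119th lowest of 14450 genes. In CT26, Bmp4 (ENSMUSG00000021835, mm10 chromosome 14, 46379414 to 46390669) was listed at 0 in all 8 libraries, so the line gave no comparison.

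TGFB2 was lower in KO MDA-MB-231 and TGFB1 was not distinguishable there. TGFB1 and TGFB2 encode isoforms of TGF-beta, both secreted as latent complexes. TGFB2 (ENSG00000092969, hg38 chromosome 1, 218346235 to 218444619) had 26.5, 37.2, 34.4 and 32.7 FPKM in the KO libraries, against 47.4, 61.2, 53.7 and 56.4 FPKM in the WT libraries. All 4 KO libraries lay below all 4 WT libraries, and the log2 fold change was -0.73 (SE 0.11, limma, adjusted p = 4.02e-04). TGFB1 (ENSG00000105329, hg38 chromosome 19, 41301587 to 41353911) had 62.4, 49.4, 54.0 and 52.1 FPKM in the KO libraries, against 48.5, 51.8, 57.8 and 52.7 FPKM in the WT libraries. The groups overlapped, with a log2 fold change of 0.04 (95% interval -0.14 to 0.23, limma, adjusted p = 0.654). Its sign turned under upper-quartile scaling (-0.17) and quantile normalization (-0.18). Counting by strand is not stated, and TGFB1 overlaps HNRNPUL1 on the opposite strand, which averaged 253 FPKM in KO and 158 FPKM in WT cells. The FPKM of TGFB2 divided by that of TGFB1 was 0.425 to 0.753 in KO and 0.928 to 1.18 in WT libraries.

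In CT26 the TGF-beta isoforms moved little. Tgfb1 (ENSMUSG00000002603, mm10 chromosome 7, 25687002 to 25705077) had 13.3, 12.8, 12.4 and 12.0 FPKM in the KO libraries, against 14.3, 14.8, 13.4 and 14.5 FPKM in the WT libraries. The groups lay close together without overlap, and the log2 fold change was -0.16 (SE 0.05, limma, adjusted p = 0.0199). That call was lost under upper-quartile scaling (limma, adjusted p = 0.169), quantile normalization (0.0518) and centring on chromosome windows (0.0546), and without KO replicate 4 (0.0501) or WT replicate 2 (0.0515). In the authors' deposited table its q-value was 0.15. Tgfb2 (ENSMUSG00000039239, mm10 chromosome 1, 186622792 to 186707033) had 0.0395, 0.0885, 0.318 and 0.0473 FPKM in the KO libraries, against 0.0327, 0.0959, 0.0858 and 0.0399 FPKM in the WT libraries. These levels lay below the filter and overlapped (exact permutation test over 70 assignments, two-sided p = 0.514, where 0.0286 is the smallest possible).

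INHBA encodes the beta-A subunit, which pairs with itself to form activin A. In MDA-MB-231, INHBA (ENSG00000122641, hg38 chromosome 7, 41667168 to 41705834) had 1.01, 1.17, 1.48 and 1.15 FPKM in the KO libraries, against 1.04, 1.48, 1.03 and 1.59 FPKM in the WT libraries. The libraries were mixed, all near the filter of 1 FPKM, and the log2 fold change was -0.05 (95% interval -0.33 to 0.23, limma, adjusted p = 0.730). In CT26, Inhba (ENSMUSG00000041324, mm10 chromosome 13, 15807243 to 16032275) had 10.8, 11.6, 11.02 and 9.29 FPKM in the KO libraries, against 9.80, 9.95, 9.71 and 8.19 FPKM in the WT libraries. The groups overlapped through KO replicate 4, and the log2 fold change was 0.17 (95% interval -0.02 to 0.35, limma, adjusted p = 0.119). It passed the test without KO replicate 4 (limma, adjusted p = 0.0363), with upper-quartile scaling (0.0370) and with centring on chromosome windows (0.0306).

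FST, the antagonist of activin, was higher in KO cells of both lines. Follistatin binds activin almost irreversibly and also holds some BMPs and GDFs. In MDA-MB-231, FST (ENSG00000134363, hg38 chromosome 5, 53480409 to 53487134) had 61.8, 66.9, 53.0 and 61.8 FPKM in the KO libraries, against 9.67, 10.4, 10.2 and 10.8 FPKM in the WT libraries. Every KO library was several times above every WT library. The ratio of means was 5.92 and the log2 fold change 2.45 (SE 0.08, limma, adjusted p = 2.47e-08), the 142nd highest of 14450 genes. In CT26, Fst (ENSMUSG00000021765, mm10 chromosome 13, 114452262 to 114462047) had 22.3, 21.2, 19.96 and 22.1 FPKM in the KO libraries, against 4.65, 4.94, 4.37 and 3.92 FPKM in the WT libraries. Again all KO libraries lay far above all WT libraries. The ratio of means was 4.78 and the log2 fold change 2.03 (SE 0.07, limma, adjusted p = 2.43e-07), the 49th highest of 11341 genes.

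FST and INHBA RNA stood in different proportions in KO and WT cells. The FPKM of FST divided by that of INHBA was 61.4, 57.4, 35.7 and 53.8 in the KO libraries of MDA-MB-231, against 9.26, 7.05, 9.87 and 6.81 in the WT libraries. In CT26 the same ratio was 2.06, 1.83, 1.81 and 2.38 in the KO libraries, against 0.475, 0.496, 0.450 and 0.479 in the WT libraries. In WT CT26 cells Fst RNA was thus below Inhba RNA per length in each library, and in KO cells it was above it in each library. Other activin subunits and antagonists are not in this ratio, and INHBA of MDA-MB-231 lay near the filter. In that line INHBB, another activin subunit, averaged 6.89 FPKM in KO and 1.34 FPKM in WT cells. FSTL3, another antagonist that binds activin, went the other way, with 13.3 FPKM in KO and 33.8 FPKM in WT cells. A ratio over all of them was not taken. These are RNA levels, and protein was not measured.

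THBS1 was the secreted regulator that was lower in KO cells of both lines. It encodes thrombospondin-1, a matrix glycoprotein able to activate latent TGF-beta. In MDA-MB-231, THBS1 (ENSG00000137801, hg38 chromosome 15, 39581079 to 39599466) had 82.4, 81.9, 79.2 and 87.5 FPKM in the KO libraries, against 376, 387, 423 and 424 FPKM in the WT libraries. The KO libraries were tightly grouped at 20.6% of the WT mean, with a log2 fold change of -2.27 (SE 0.05, limma, adjusted p = 5.24e-09). In CT26, Thbs1 (ENSMUSG00000040152, mm10 chromosome 2, 118111876 to 118127133) had 9.11, 7.10, 8.95 and 9.26 FPKM in the KO libraries, against 30.2, 30.7, 28.0 and 29.1 FPKM in the WT libraries. KO cells held 29.2% of the WT mean, with a log2 fold change of -1.67 (SE 0.08, limma, adjusted p = 1.21e-06), the 59th lowest of 11341 genes. An intronic transcript annotated on the same strand inside human THBS1, AC037198.1, averaged 0.645 FPKM in KO and 23.8 FPKM in WT cells, and its reads cannot be told apart from unspliced THBS1.

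**Figure D2:**
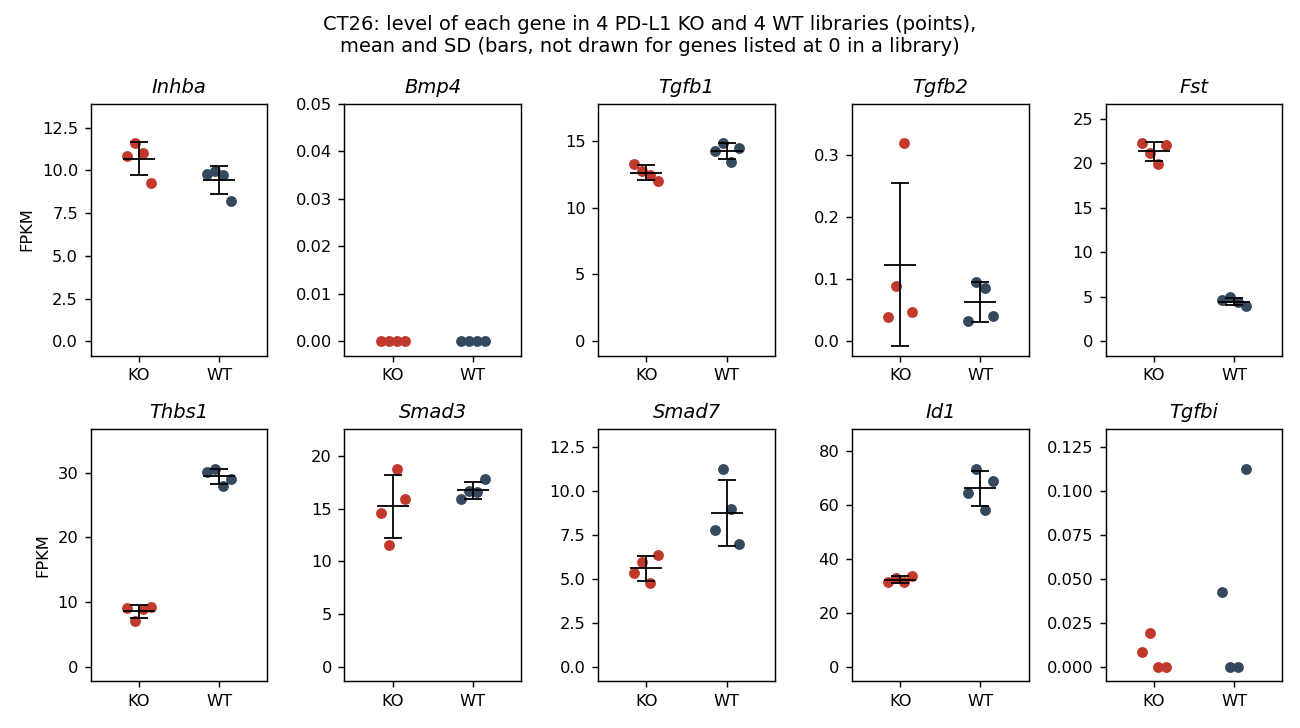
Level of each of the 10 genes in FPKM (vertical axes) in the 4 PD-L1 KO and 4 PD-L1 WT libraries of CT26. Points are libraries and bars the mean and SD, left out for genes listed at 0 in a library. Fst stands higher in all KO libraries (19.96 to 22.3 FPKM, against 3.92 to 4.94 in WT), Thbs1, Id1 and Smad7 stand lower, Smad3 and Inhba overlap, and Bmp4 lies at 0.

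SMAD3 carries the TGF-beta and activin signal into the nucleus, and its RNA was lower in KO MDA-MB-231. SMAD3 (ENSG00000166949, hg38 chromosome 15, 67063763 to 67195195) had 22.0, 30.8, 24.0 and 28.5 FPKM in the KO libraries, against 50.2, 43.2, 48.4 and 50.9 FPKM in the WT libraries. The groups were clearly apart, and the log2 fold change was -0.86 (SE 0.11, limma, adjusted p = 1.11e-04), or -1.40 relative to its chromosome window. In CT26, Smad3 (ENSMUSG00000032402, mm10 chromosome 9, 63646767 to 63757994) had 14.6, 11.6, 18.8 and 15.9 FPKM in the KO libraries, against 15.9, 16.6, 16.6 and 17.8 FPKM in the WT libraries. The KO libraries were spread on both sides of the WT libraries, with a log2 fold change of -0.15 (95% interval -0.43 to 0.14, limma, adjusted p = 0.344).

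SMAD7, the inhibitory SMAD that blocks receptors and is itself induced by TGF-beta, was lower in KO cells of both lines, by less than THBS1. In MDA-MB-231, SMAD7 (ENSG00000101665, hg38 chromosome 18, 48919853 to 48952052) had 6.14, 3.87, 5.26 and 6.23 FPKM in the KO libraries, against 10.0, 6.24, 9.64 and 8.17 FPKM in the WT libraries. The highest KO library almost touched the lowest WT library, and the log2 fold change was -0.58 (SE 0.17, limma, adjusted p = 0.0155). In CT26, Smad7 (ENSMUSG00000025880, mm10 chromosome 18, 75367529 to 75395935) had 5.34, 5.95, 4.74 and 6.36 FPKM in the KO libraries, against 7.78, 11.2, 8.94 and 6.96 FPKM in the WT libraries. The groups did not overlap, and the log2 fold change was -0.55 (SE 0.14, limma, adjusted p = 0.00967). The 82 tested genes in the 20 Mb of mouse chromosome 18 around it had a median log2 fold change of -0.51, and relative to that window Smad7 differed by -0.04 (limma, adjusted p = 0.865). In MDA-MB-231 the window of SMAD7 had a median of 0.45, and relative to it SMAD7 differed by -1.03.

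ID1, an inhibitor of basic helix-loop-helix factors and a direct BMP target, was lower in KO cells of both lines. In MDA-MB-231, ID1 (ENSG00000125968, hg38 chromosome 20, 31605283 to 31606515) had 90.2, 73.4, 76.8 and 85.0 FPKM in the KO libraries, against 145, 134, 142 and 132 FPKM in the WT libraries. All KO libraries lay below all WT libraries, at 58.7% of the WT mean, with a log2 fold change of -0.76 (SE 0.07, limma, adjusted p = 1.41e-05), or -1.16 relative to its chromosome window. In CT26, Id1 (ENSMUSG00000042745, mm10 chromosome 2, 152736251 to 152737410) had 31.2, 32.9, 31.2 and 33.7 FPKM in the KO libraries, against 64.1, 73.3, 58.0 and 68.8 FPKM in the WT libraries. The KO libraries were tightly grouped at 48.8% of the WT mean, with a log2 fold change of -1.01 (SE 0.07, limma, adjusted p = 7.92e-06).

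TGFBI, a secreted matrix protein named for its induction by TGF-beta, was close to BMP4 in the size of its difference in MDA-MB-231. TGFBI (ENSG00000120708, hg38 chromosome 5, 136028895 to 136063818) had 18.1, 14.8, 18.01 and 20.2 FPKM in the KO libraries, against 182, 205, 199 and 199 FPKM in the WT libraries. KO cells held 9.06% of the WT mean, with a log2 fold change of -3.40 (SE 0.09, limma, adjusted p = 7.87e-09). Divided by TGFB1, it stood at 0.290 to 0.387 in KO and 3.44 to 3.95 in WT libraries. In CT26, Tgfbi (ENSMUSG00000035493, mm10 chromosome 13, 56609523 to 56639562) had 0.00848, 0.0190, 0 and 0 FPKM in the KO libraries, against 0.0422, 0, 0 and 0.112 FPKM in the WT libraries. It was at or near 0 throughout and was not distinguishable (exact permutation test, two-sided p = 0.429).

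By level, THBS1, BMP4 and TGFBI led the members in WT MDA-MB-231, each per length of transcript, and TGFB2, TGFB1 and SMAD3 overlapped behind ID1. In KO MDA-MB-231 the order differed: THBS1 and ID1 overlapped at the top, FST overlapped TGFB1 next, and BMP4 overlapped TGFBI near the bottom. In CT26, Id1 led in both groups. Fst followed it in KO cells and was the lowest of the 7 tested members in WT cells.

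**Figure D3:**
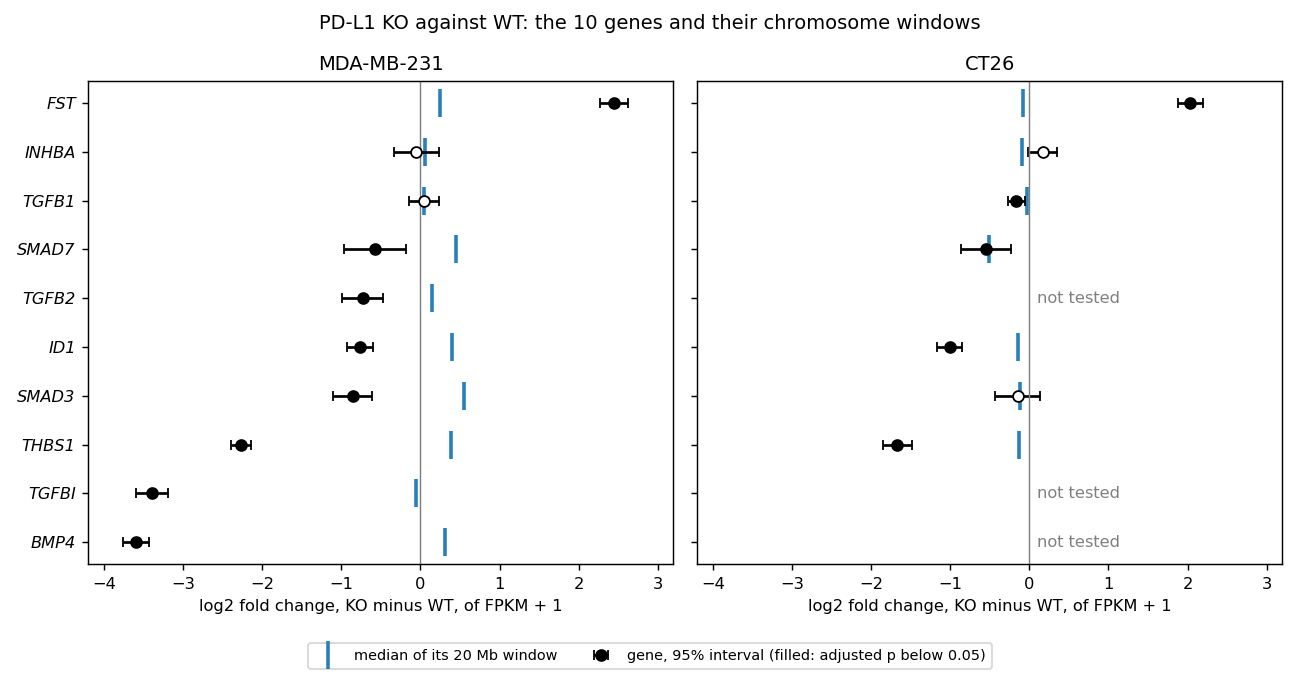
Log2 fold change of FPKM + 1, KO minus WT, for each gene (points, with 95% intervals, filled where the limma adjusted p was below 0.05) in MDA-MB-231 and CT26. Blue marks give the median of the tested genes in a 20 Mb window around the gene. FST lies at 2.45 and 2.03, away from its window marks, and Smad7 of CT26 lies at -0.55 beside its window mark at -0.51.

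For the 7 genes tested in both lines, the difference between the responses, MDA-MB-231 minus CT26, was tested in 1 limma model of all 16 libraries. FST, SMAD3, ID1 and THBS1 passed the test, 4 of 7, beside 72.2% of 8648 gene pairs. FST rose more in MDA-MB-231 by 0.42 (SE 0.11, limma, adjusted p = 0.00259), but by 0.13 after upper-quartile scaling (adjusted p = 0.296) and 0.22 after quantile normalization (adjusted p = 0.0631). THBS1 differed by -0.60 (SE 0.10, limma, adjusted p = 3.64e-05) and SMAD3 by -0.71 (SE 0.17, limma, adjusted p = 0.00119), both more negative in MDA-MB-231, THBS1 by -0.90 after upper-quartile scaling. ID1 differed by 0.24 (SE 0.10, limma, adjusted p = 0.0398), with the opposite sign after upper-quartile scaling (-0.06) and quantile normalization (-0.10). On simulated data this test made false calls more often than its threshold allows, so an adjusted p this near to the threshold may be too small. The simulation changed few genes, in MDA-MB-231 alone, against 72.2% of pairs called here, so it cannot give the size of that excess. ID1 is given as a value rather than as a difference shown. The difference was -0.03 for SMAD7 (95% interval -0.50 to 0.44), -0.22 for INHBA (-0.53 to 0.09) and 0.21 for TGFB1 (-0.0046 to 0.42), none past the threshold. With upper-quartile scaling INHBA passed it (-0.42, limma, adjusted p = 0.0168), and TGFB1 passed it without KO replicate 2 or WT replicate 3 of MDA-MB-231 (0.25 each, limma, adjusted p = 0.0320 and 0.0340) and had the opposite sign after upper-quartile scaling (-0.09) and quantile normalization (-0.06). FST was called higher in both lines, as were 11.5% of gene pairs. SMAD7, ID1 and THBS1 were called lower in both, as were 9.05%, but Smad7 of CT26 did not pass relative to its chromosome window. None of the 7 was called in opposite directions, which 23.4% of pairs were. FST was among the 20 pairs, 0.231%, called at least 2-fold higher in both lines, and THBS1 among the 41 pairs, 0.474%, called at least 2-fold lower in both.

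The other genes of the pathway were taken from 8 lists of 98 genes that do not contain the members. These lists too were chosen with earlier results of these data known. Their distance from all genes may come from that choice, and it was not tested. Each count below stands beside 42.6% higher and 25.7% lower among all tested genes of MDA-MB-231, and 22.3% higher and 33.4% lower among those of CT26. Some counted genes met the filter only through their higher group, so that entering the test already implied a difference. They were GDF5, CHRDL1, ENG and ACVR2B of MDA-MB-231 and Bmp2, Gdf11 and Atoh8 of CT26, each below 1 FPKM in every library of the other group. In MDA-MB-231 the TGF-beta target genes were mostly lower: 11 of 17 tested fell, 5 rose and 1 did not pass, with a median log2 fold change of -0.85 beside 0.18 for all genes. PMEPA1, which dampens TGF-beta signalling, averaged 5.15 ± 0.454 FPKM in KO and 92.1 ± 10.0 FPKM in WT cells (SD, n = 4 each), a log2 fold change of -3.92. The sharpest exceptions were CTGF, a matricellular protein, at 312 ± 15.4 FPKM in KO and 34.4 ± 1.26 FPKM in WT, and IL11, a cytokine of the IL-6 family, at 308 ± 10.0 FPKM in KO and 38.1 ± 3.70 FPKM in WT, log2 fold changes of 3.14 and 2.99.

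In CT26 the same list was mostly higher. Of 13 tested, 8 rose, 3 fell and 2 did not pass, with a median of 0.55 beside -0.06 for all genes. Cyr61, a matricellular protein, averaged 210.1 ± 12.3 FPKM in KO and 72.3 ± 6.15 FPKM in WT cells, Junb, an AP-1 factor, 56.1 ± 3.43 FPKM in KO and 22.9 ± 1.18 FPKM in WT, and Tsc22d1 141 ± 4.70 FPKM in KO and 87.4 ± 2.12 FPKM in WT (SD, n = 4 each). Their log2 fold changes were 1.53, 1.26 and 0.68, the last 0.39 relative to its chromosome window. Ctgf and Il11 rose here too, by 0.73 and 1.16. Both were named in CT26 after their values were seen, and the difference between the lines over the list was not tested.

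BMP target genes were lower in MDA-MB-231 in 3 of 3 tested, among them ID3, a relative of ID1, at 70.3 ± 7.97 FPKM in KO and 87.4 ± 2.38 FPKM in WT (log2 fold change -0.32, or -0.53 with upper-quartile scaling and -0.57 with quantile normalization). Genes of this list below the filter did not share that direction. ID4, named after its values were seen, had 0.992 to 1.22 FPKM in KO and 0.0206 to 0.111 FPKM in WT libraries, without overlap (exact permutation test, two-sided p = 0.0286, the smallest possible), and MSX2 had 0.540 to 1.25 FPKM in KO and 0.344 to 0.704 FPKM in WT libraries, which overlapped. In CT26, 2 rose and 2 fell of 4 tested. Id3 fell the most, to 14.5 ± 1.73 FPKM in KO against 44.1 ± 3.23 FPKM in WT, a log2 fold change of -1.54. The homeobox gene Msx1 rose by 0.43 and Id2 by 0.26, but relative to their chromosome windows Msx1 no longer passed the test and Id2 differed by -0.30. Id2 also did not pass without KO replicate 1, 2 or 4 or WT replicate 1, 3 or 4 (limma, adjusted p between 0.0635 and 0.0791).

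Among other ligands, INHBB, the beta-B subunit of activin B, rose in MDA-MB-231 to 6.89 ± 0.552 FPKM in KO against 1.34 ± 0.0737 FPKM in WT (log2 fold change 1.75). GDF11, an activin-like ligand, rose by 0.98 (0.58 relative to its chromosome window) and GDF15, a stress-induced family member, fell by 1.18 on the log2 scale, so that 2 of 3 tested rose and 1 fell. In CT26, 1 of 3 rose and 2 did not pass. Of 11 further BMP ligands 1 was tested in each line, and both were named after their values were seen. Both met the filter only through their higher group, so their calls add nothing to the levels given here. GDF5 of MDA-MB-231 had at most 0.0806 FPKM in a KO library, against 3.87 to 4.53 FPKM in WT libraries. Bmp2 of CT26 had 1.15 to 1.42 FPKM in KO libraries, against 0.0277 to 0.0792 FPKM in WT libraries.

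Of the extracellular antagonists in MDA-MB-231, 5 of 8 fell, 1 rose and 2 did not pass. Among those that fell, NBL1 (-0.48), named after its values were seen, lay in a window with a median of -0.47. NOG, encoding the BMP antagonist noggin, fell to 3.53 ± 0.350 FPKM in KO against 27.7 ± 3.67 FPKM in WT, and FSTL3, a follistatin relative that also binds activin, to 13.3 ± 0.487 FPKM in KO against 33.8 ± 2.13 FPKM in WT (log2 fold changes -2.66 and -1.28). CHRDL1, a chordin-like BMP antagonist, rose to 15.1 ± 0.891 FPKM in KO against 0.754 ± 0.181 FPKM in WT (3.21). In CT26, 1 of 5 rose, 1 fell and 3 did not pass. The gene that fell was Twsg1 (-0.18). Its call was lost with upper-quartile scaling (limma, adjusted p = 0.0775), quantile normalization (0.0529) and centring on chromosome windows (0.672). Grem1, encoding the BMP antagonist gremlin, rose to 26.3 ± 0.290 FPKM in KO against 13.9 ± 0.619 FPKM in WT (0.88), while Fstl3 did not pass (0.15, limma, adjusted p = 0.0965). Fstl3 passed with upper-quartile scaling (0.24, adjusted p = 0.0176), quantile normalization (0.21, 0.0311), centring on chromosome windows (0.23, 0.0251) and the replicate block (0.15, 0.0349).

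Receptors in MDA-MB-231 rose in 5 of 10 and fell in 2, shares near those of all tested genes (42.6% and 25.7%), with 3 not passing. In CT26 5 of 11 rose, 4 fell and 2 did not pass, beside 22.3% higher and 33.4% lower of all tested genes. Of those that rose, Acvr1b, Eng, Acvr1 and Bmpr1a lay near the threshold (limma, adjusted p = 0.0335, 0.0368, 0.0414 and 0.0444). Bmpr1a (0.13) and Bmpr2 (-0.36) lay in windows with medians of 0.26 and -0.39. These genes of CT26 were named after their values were seen. ENG, the co-receptor endoglin, rose in MDA-MB-231 to 26.2 ± 1.96 FPKM in KO against 0.735 ± 0.262 FPKM in WT (log2 fold change 3.98), and TGFBR2, the type II TGF-beta receptor, to 58.5 ± 2.70 FPKM in KO against 34.5 ± 0.831 FPKM in WT (0.75). The window of TGFBR2 had a median of 0.50, and relative to it TGFBR2 differed by 0.25. ACVR1B rose by 0.54, but did not pass with upper-quartile scaling (limma, adjusted p = 0.0602) or relative to its window (0.461). BMPR1A (0.40) and ACVR2B (0.61), named after their values were seen, lay in windows with medians of 0.61 and 0.50. In CT26, Tgfbr1 and Tgfbr2 fell by 0.48 and 0.42 on the log2 scale, and Acvrl1, a type I receptor, rose to 17.0 ± 2.10 FPKM in KO against 8.06 ± 3.42 FPKM in WT (1.05). WT replicate 4 of Acvrl1, at 13.1 FPKM, stood apart from the other WT libraries (5.63, 6.82 and 6.67 FPKM). Without single libraries the log2 fold change was 0.92 to 1.29, and it passed each time (limma, adjusted p at most 0.0123).

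SMADs and their regulators rose in 7 of 15 and fell in 5 of 15 in MDA-MB-231, against 2 and 10 of 15 in CT26, with 3 not passing in each line. The shares in MDA-MB-231 were near the 42.6% higher and 25.7% lower of all tested genes, and in CT26 22.3% of all tested genes were higher and 33.4% lower. Some counted genes lay near the median of their chromosome window. In MDA-MB-231 these were SMAD2 (0.42, window 0.45), USP15 (0.55, window 0.56), SMAD6 (0.68, window 0.55) and SKI (-0.60, window -0.47). In CT26, Tgif1 (-0.156) had a window median of -0.155. These genes were named after their values were seen. In MDA-MB-231, SMAD4 rose to 47.3 ± 0.635 FPKM in KO against 24.5 ± 3.40 FPKM in WT (log2 fold change 0.93), TGIF2 rose by 0.97 and TGIF1, a co-repressor of SMADs, fell to 11.4 ± 0.762 FPKM in KO against 62.4 ± 2.55 FPKM in WT (-2.35). Relative to their chromosome windows SMAD4 differed by 0.48 and TGIF2 by 0.57. In CT26, Smad2 fell to 23.5 ± 1.71 FPKM in KO against 53.6 ± 2.21 FPKM in WT (-1.16) and Smurf1, a ubiquitin ligase for SMADs, to 20.4 ± 0.810 FPKM in KO against 39.7 ± 2.06 FPKM in WT (-0.93). Smad2, Smad4 and Nedd4l lie with Smad7 in the window of mouse chromosome 18 that had a median of -0.51, and relative to it Smad2 differed by -0.64. Smad4 (-0.34) and Nedd4l (-0.27), named after their values were seen, had the opposite sign relative to that window, and Smad4 did not pass the test without KO replicate 1, KO replicate 3, WT replicate 2 or WT replicate 4 (limma, adjusted p = 0.0546, 0.0651, 0.05003 and 0.0597), nor with upper-quartile scaling (0.0718) or quantile normalization (0.0661). Ppm1a, a SMAD phosphatase, rose by 0.70 but no longer passed the test relative to its own window.

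Genes of TGF-beta latency fell in 4 of 8 and rose in 2 of 8 in MDA-MB-231, beside 25.7% lower and 42.6% higher of all tested genes. FURIN, which cleaves TGF-beta precursors, averaged 20.5 ± 5.18 FPKM in KO and 87.0 ± 11.0 FPKM in WT (log2 fold change -2.05), and ITGAV, a subunit of the integrins that activate latent TGF-beta, 18.9 ± 2.69 FPKM in KO and 38.8 ± 4.29 FPKM in WT (-1.005). In CT26, 2 of 7 rose, 2 fell and 3 did not pass. Ltbp4, a latent TGF-beta binding protein, rose to 68.5 ± 4.95 FPKM in KO against 43.9 ± 4.71 FPKM in WT (0.63). Ltbp2, named after its values were seen, rose by 0.58, beside a window median of 0.58. Ltbp1 (-0.12) and Itgav (-0.16) fell, but neither passed with upper-quartile scaling, quantile normalization or centring on chromosome windows. Itgav also did not pass without a filter, without a trend, with the replicate block, or without KO replicate 1 or 4 or WT replicate 1, 3 or 4.

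**Figure D4:**
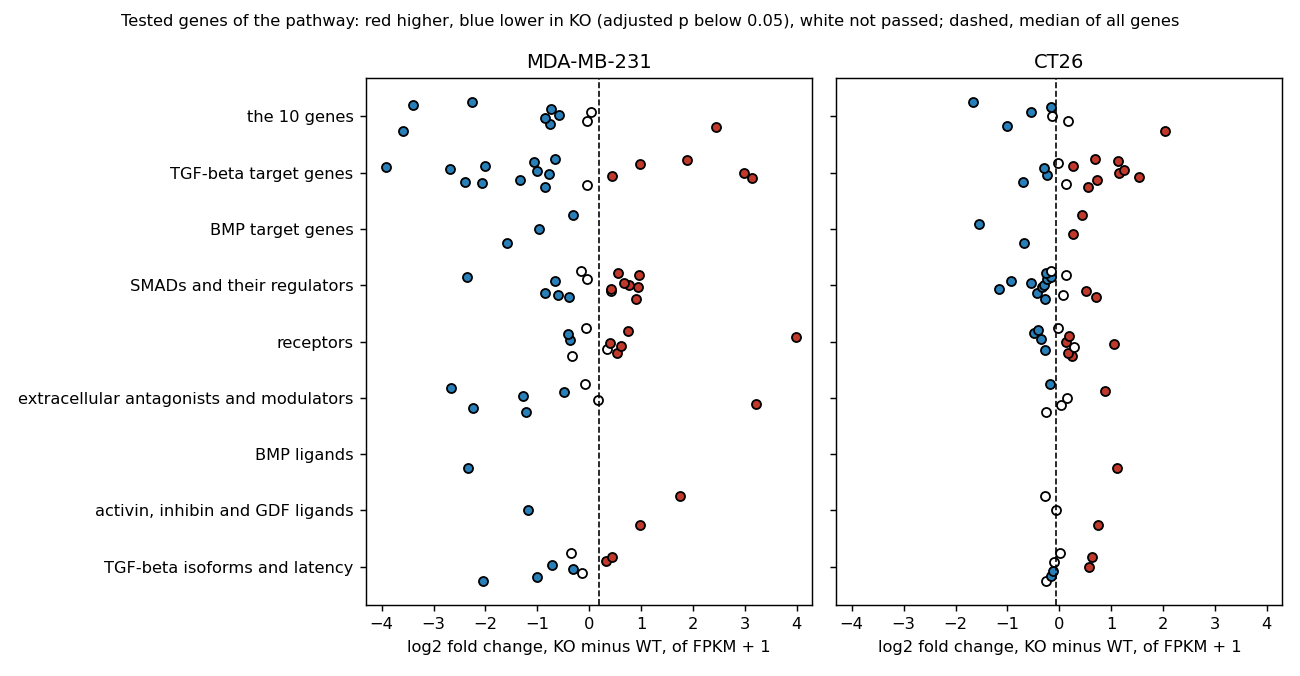
Log2 fold change of FPKM + 1, KO minus WT, of each tested gene in 8 pathway lists and of the 10 genes (top row) in MDA-MB-231 and CT26. Red points were higher and blue points lower in KO (limma, adjusted p below 0.05), white points did not pass, and the dashed line is the median of all tested genes. Of the TGF-beta target genes, 11 of 17 lie lower in MDA-MB-231 and 8 of 13 higher in CT26.

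Markers of other cell types differed between the groups as well. In MDA-MB-231 the 6 luminal and epithelial markers summed to 19.2 to 21.3 FPKM in KO and 345 to 355 FPKM in WT libraries, where KRT19 made up most of the sum (7.74 ± 0.171 FPKM in KO and 319.8 ± 7.08 FPKM in WT). Its 7 leukocyte markers summed to 78.7 to 95.6 FPKM in KO and 109 to 115 FPKM in WT libraries, mostly CD68, with CD3E at 0. In CT26 the 6 fibroblast markers summed to 72.8 to 91.4 FPKM in KO and 21.8 to 23.6 FPKM in WT libraries, mostly Col3a1, with Lum and Thy1 at 0 in every library, while Pdgfrb of the same list was lower at 5.73 ± 0.461 FPKM in KO and 6.95 ± 0.278 FPKM in WT. Its leukocyte markers summed to 53.9 to 59.2 FPKM in KO and 20.7 to 25.0 FPKM in WT libraries, mostly Cd14, with Cd3e and Csf1r at 0. Cd68, the other tested leukocyte marker of CT26, was lower, at 3.55 ± 0.775 FPKM in KO and 5.30 ± 0.715 FPKM in WT (SD, n = 4 each), a log2 fold change of -0.48 (limma, adjusted p = 0.0161). Endothelial markers were each below 1 FPKM in every library of both lines. The part of these differences in the results above was not tested.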

How the data were processed

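RNA of 16 libraries was measured by sequencing. Per the submitters' processing notes, bcl2fastq 2.18, STAR 2.5.4a, Cufflinks 2.2.1 and Cuffdiff were used, with builds hg38 and mm10. For the annotation release, strand and Cuffdiff options nothing was given in the sources used here. The authors deposited 1 table per line, normalized separately, with an FPKM per gene and library. The deposited tables also give the authors' mean FPKM per group, a test statistic (a score), and a p-value and q-value.

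Here log2(FPKM + 1) was fitted in limma 3.58.1 (R 4.3.3) by group alone, with limma's trend option. Genes with at least 1 FPKM in at least 4 of 8 libraries of a line entered, 14450 in MDA-MB-231 and 11341 in CT26. P-values, all two-sided, were adjusted over these genes by Benjamini-Hochberg, with a threshold of 0.05. The difference between lines was tested over 8648 genes paired by symbol. Members left out by the filter had an exact permutation test over 70 assignments. The fits were tested on simulated data in which few genes were changed, unlike the real data. There the test of the difference between lines made false calls somewhat more often than its threshold allows. The test within a line made them about as often as its threshold allows. Genes that the authors' status marks as having too much data, 13 in MDA-MB-231 and 210 in CT26, are listed at 0 in every library and were not tested. Read totals are not in the tables, so depth is relative, taken from low FPKM values, and no counting intervals are given. The shallower KO libraries of MDA-MB-231 carry more counting error at low FPKM.

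Members and lists were chosen with earlier results of these data known. The text names all members, CD274, and up to 3 genes per list and line ranked by adjusted p, among genes that average 5 FPKM or more in either group. How many of these are described was decided with their values in view, and exceptions are said where they stand. Human coordinates are from GENCODE 29 (hg38) and mouse coordinates from the deposited table (mm10). Promoters are from RefSeq, where all 10 human members matched, and mouse promoters and protein sequences were not used here. Levels were never compared between lines. Alternatives were pseudocounts of 0.1 and 5, no filter, a filter of 5 FPKM, upper-quartile scaling, quantile normalization, no trend, centring on 20 Mb windows, a replicate block and leaving out each library. Python 3.11.15, numpy 2.4.6, pandas 2.3.3, scipy 1.17.1 and matplotlib 3.10.9 were used.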

Additional observations from a re-analysis of the deposited data

Results flagged for a closer look

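The difference in KO response between the lines, MDA-MB-231 minus CT26, passed the test for 4 of the 7 genes tested in both. The log2 difference was 0.42 for FST, 0.24 for ID1, -0.71 for SMAD3 and -0.60 for THBS1. The values for FST and ID1 did not pass under upper-quartile scaling or quantile normalization.

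In CT26, 1 library stood far from the other 3 of its group for each of 2 genes. Inhba was 8.19 FPKM in WT replicate 4, and Thbs1 was 7.10 FPKM in KO replicate 2. They were found among 38 groups of 4 libraries looked at, and chance alone sets apart about 1 in 20 groups.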

How the results depend on the processing

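In MDA-MB-231 the count of 1 member higher and 7 lower held under every alternative run, and leaving out single libraries left 5858 to 6023 genes higher and 3472 to 3641 lower. In CT26 the members higher numbered 2 instead of 1, with Inhba added, under upper-quartile scaling, window centring and the replicate block, and 1 to 2 when single libraries were left out. Members lower in CT26 numbered 2 instead of 4 under window centring, where Tgfb1 and Smad7 were lost, and 3 to 4 when single libraries were left out. Genes in CT26 numbered 2275 to 2480 higher and 3497 to 3651 lower without single libraries. Between lines, 2 members instead of 4 passed under quantile normalization (SMAD3 and THBS1), SMAD3, THBS1 and INHBA (-0.42) under upper-quartile scaling, and 3 to 5 without single libraries, over 6095 to 6210 genes. ID1 lost its call in 8 of the 16 such fits.

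Signs turned for MDA-MB-231 INHBA under quantile normalization (0.093) and over single libraries left out (-0.11 to 0.012), for MDA-MB-231 TGFB1 under upper-quartile scaling (-0.17), quantile normalization (-0.18) and single libraries left out (-0.022 to 0.089), and under window centring for Id2 (-0.30), Ltbp1 (0.034), Smad4 (0.17) and Nedd4l (0.24) of CT26. Between lines they turned for TGFB1 under upper-quartile scaling (-0.092) and quantile normalization (-0.059), for ID1 under the same (-0.063 and -0.10), and for SMAD7 over single libraries left out (-0.15 to 0.094). The cause was not tested. INHBA of MDA-MB-231 gave no value under the filter of 5 FPKM.

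The labels do not say whether replicate numbers pair the libraries, and the main fit took no pairing. Same-numbered KO and WT libraries correlated at -0.0365 to 0.00442 in MDA-MB-231 and 0.0273 to 0.0779 in CT26. In CT26 every library correlated best with its own number, a hint from the data only. With the replicate block 6026 genes were higher and 3622 lower in MDA-MB-231, and 2391 higher and 3640 lower in CT26. In CT26, Inhba and Fstl3 then passed the test (limma, adjusted p = 0.0316 and 0.0349), and Itgav no longer did (0.111).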
